A study of Mus musculus with 6 samples.

Results

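The genes of glycolysis and of the response to low oxygen were followed in intestinal adenomas of mice with and without the miR-34 microRNAs. They are 38 genes chosen by name, namely glycolytic enzymes, glucose and lactate transporters, regulators of glucose use, the oxygen sensing proteins and targets of the hypoxia-inducible factors (HIF). Each symbol was found once among the 46078 genes of the count files, and all 38 passed the filter on low counts that left 17254 genes for the test. The mice were ApcMin/+, so all carried 1 truncated allele of Apc, the brake on Wnt signaling whose loss starts intestinal polyps. They were on a mixed C57BL6/SV129 strain and 18 weeks old. The knockout group (miR-34a/b/c-/-;ApcMin/+) and the wild-type group (miR-34a/b/c+/+;ApcMin/+) had 3 mice each. Each library was made from total RNA of 3 pooled small intestinal tumors of 1 mouse, so the mouse is the replicate. Whole adenomas hold stroma, vessels and immune cells beside tumor epithelium, and in such bulk RNA fewer cells of a type cannot be told apart from less RNA per cell.

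Glycolysis splits glucose into pyruvate, and many tumors reduce much of that pyruvate to lactate even when oxygen is present. When oxygen is scarce, the prolyl hydroxylases of the EGLN family stop marking the HIF alpha subunits for destruction, and HIF switches on genes for glucose uptake, glycolysis, blood vessel growth and mitophagy. The intestinal epithelium lives under low oxygen near the lumen, so that HIF and its targets are active there in normal physiology. The miR-34 microRNAs are induced by p53 and lower the stability and translation of mRNAs that match their seed, and the enzyme gene Ldha has been described among their targets.

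The 6 libraries held 26375035 to 38354355 counts each, of which 2.31% to 4.18% fell on mitochondrial genes. The rows of Mir34a, Mir34b and Mir34c had 0 counts in each of the 6 libraries, wild-type included, which allows up to 3 counts per library, so they do not check the genotype labels. All 10 epithelial markers, such as Epcam and Vil1, were detected, with a summed level between 11988 and 17627 CPM per library (CPM is the count scaled to a common normalized library size). The first principal component of all tested genes held 40.8% of the variance. Its scores were -53.0 and -49.2 in knockout replicates 1 and 3 and lay from -0.28 to 58.5 in the other 4 libraries. The labels do not say whether mice shared a litter or a day. The p-values weigh a genotype difference against the spread between these mice.

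None of the 38 genes differed between genotypes at an adjusted p below 0.05 by edgeR's quasi-likelihood test, where 0.0927% of all tested genes did (16 genes). The counts by DESeq2 and limma-voom were also 0. Without adjustment, 4 of the 38 had an edgeR p below 0.05, all higher in the knockout, against 5.85% of all tested genes (3.27% when only higher genes are counted). The 4 were Adm, Bnip3, P4ha1 and P4ha2. By the sign alone, 29 of the 38 genes had a log2 fold change above 0, where 51.1% of all tested genes had one. The median log2 fold change was 0.15 over the 38 genes and 0.01 over all tested genes. Wild-type replicate 1 weighed on this: without it 22 of the 38 were above 0 and the median was 0.05, and without wild-type replicate 3 the median was 0.25.

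**Figure D1:**
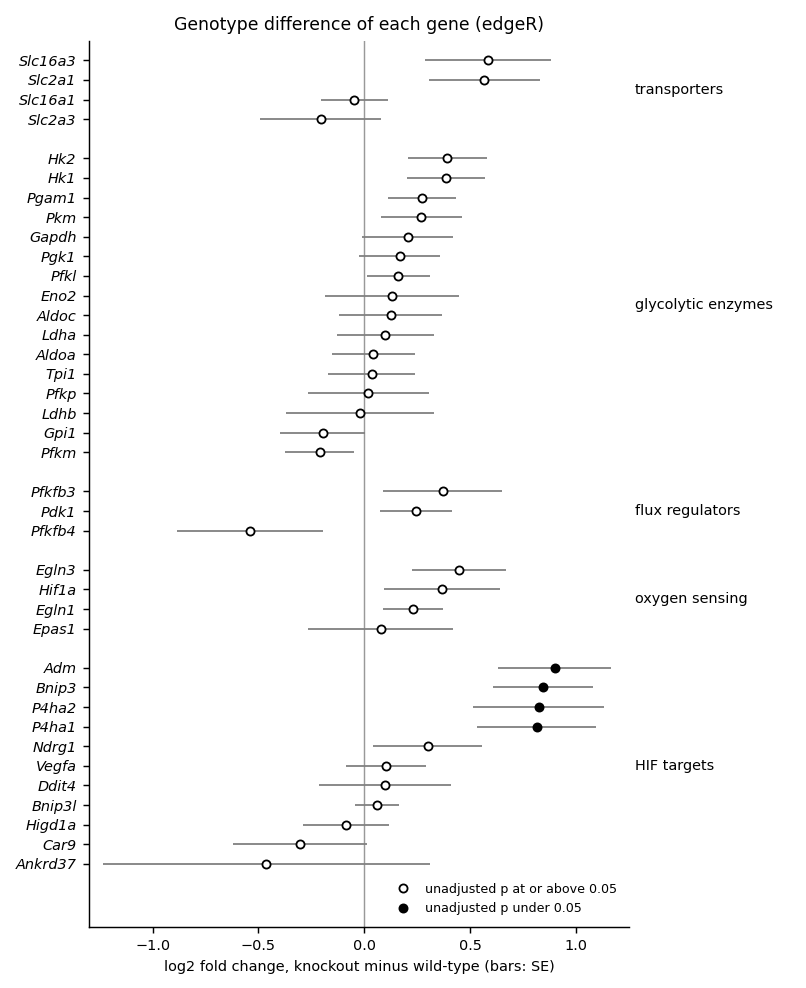
Log2 fold change (x axis, knockout minus wild-type) of the 38 genes, in rows by role, with bars for 1 SE from edgeR (3 against 3 mice). Filled points had an unadjusted p below 0.05, and these 4 genes, all HIF targets, lie between 0.81 and 0.90.

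Levels between genes were compared as CPM per kilobase of exon. Ldha, the lactate dehydrogenase subunit that favors lactate formation, stood first with a mean of 533 over the 6 libraries. Aldoa (295), Tpi1 (250.1), Pkm (248), Gapdh (220), Pgam1 (143) and Pgk1 (104) followed, all enzymes from aldolase onward. Car9, the cell surface carbonic anhydrase induced by HIF, had 103 and lay above Gpi1, the isomerase of the upper pathway (87.5). At the other end, Eno2, the neuronal enolase, had 0.355 and Slc2a3, the neuronal and leukocyte glucose transporter, 0.289. Neighbors in this order differ by less than the spread of the mice in several cases, such as Tpi1 and Pkm.

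**Figure D2:**
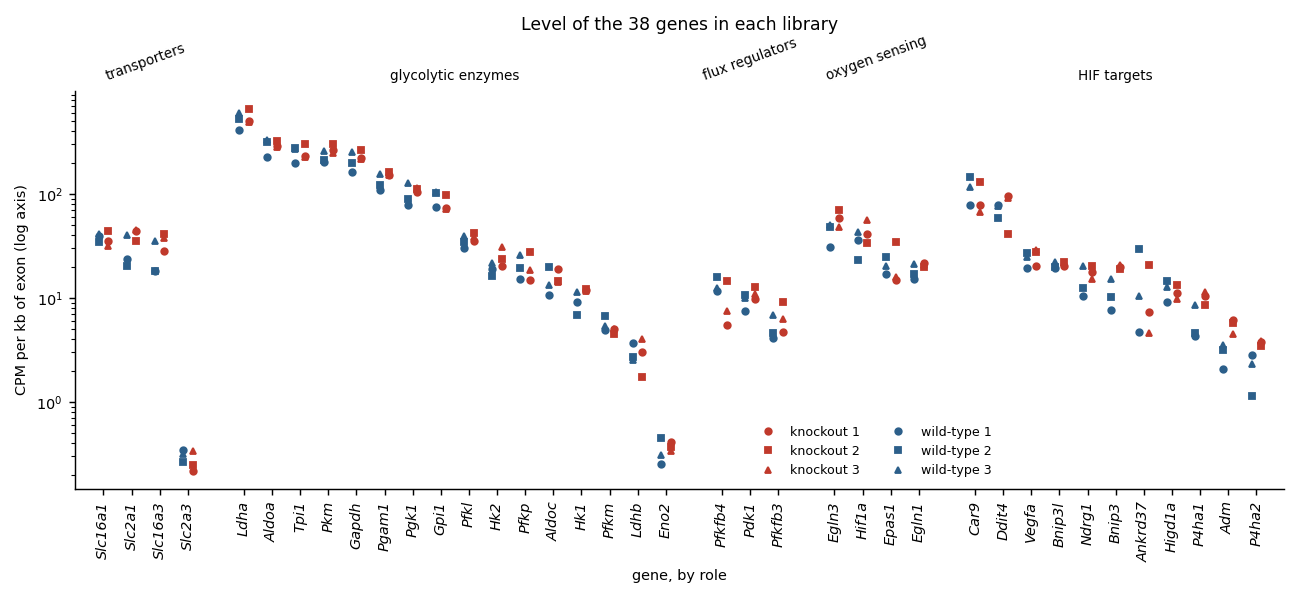
CPM per kilobase of exon (y axis, log scale) of each of the 38 genes, grouped by role and ordered by mean. Blue marks wild-type and red knockout libraries, and the shape gives the replicate number. The levels span from 0.289 for Slc2a3 to 533 for Ldha, and the colors mix for most genes.

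Among the transporters, Slc2a1 (GLUT1, the basal glucose transporter) and Slc16a3 (MCT4, which exports lactate) had higher means in the knockout. Slc2a1 had 153.9, 124.9 and 157.4 CPM in knockout replicates 1 to 3 and 82.6, 71.1 and 141 CPM in the wild-type replicates, or 0.57 ± 0.26 (SE) as log2 fold change, with an adjusted p of 0.793 by edgeR. Wild-type replicate 3 lay above knockout replicate 2, so the groups overlapped. Slc16a3 had 152, 217 and 202 CPM against 95.8, 95.9 and 189 CPM, which gives a log2 fold change of 0.58 ± 0.30. Wild-type replicate 3 again lay inside the knockout range. The other two members of the group were lower by their means. Slc16a1 (MCT1), a lactate transporter, had 158, 194 and 141 CPM in the knockout against 176, 152 and 181 CPM in the wild-type. Slc2a3 had 1.59, 1.78 and 2.45 CPM against 2.52, 1.92 and 2.29 CPM. Both overlapped. By the mean of all 6 libraries Slc16a1 had the highest level per kilobase of the 4 transporters, but Slc2a1 lay above it in knockout replicates 1 and 3.

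Of the 16 glycolytic enzymes, 13 had a log2 fold change above 0 and 0 passed, and their median was 0.13. Both hexokinases, which trap glucose in the cell as glucose 6-phosphate, had the largest values of the group. Hk1 had 101, 104 and 99.2 CPM in the knockout against 77.8, 58.3 and 96.6 CPM in the wild-type libraries, a log2 fold change of 0.39 ± 0.18 with an edgeR adjusted p of 0.793. It was the only enzyme whose groups did not overlap, by a gap of less than 3 CPM between knockout replicate 3 and wild-type replicate 3. Hk2, the hexokinase induced by HIF, had 122, 141 and 184 CPM against 114, 97.9 and 129 CPM, which gives a log2 fold change of 0.39 ± 0.19, and knockout replicate 1 lay below wild-type replicate 3.

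Among the enzymes followed here, the log2 fold changes below hexokinase were smaller in size than those of Hk1 and Hk2. Ldha had 1684, 2159 and 1637 CPM in the knockout against 1357, 1744 and 2012 CPM in the wild-type, which gives a log2 fold change of 0.10 ± 0.23, and each group covered most of the range of the other. Aldoa, the aldolase of muscle and most proliferating cells, had 840, 945 and 831 CPM against 659, 913 and 967 CPM. Tpi1, triose phosphate isomerase, had 636, 834 and 620.2 CPM against 542, 757 and 741 CPM. In all 3 genes wild-type replicate 1 was the lowest library. Pkm, pyruvate kinase, had a mean of 1358 ± 150.4 CPM in the knockout against 1127 ± 160.3 CPM in the wild-type (SD, n = 3 each), and the counts do not part its M1 and M2 splice forms. Pgam1, phosphoglycerate mutase, had 310.2 ± 11.3 against 257 ± 46.6 CPM. Pgk1, the phosphoglycerate kinase on the X chromosome, had 248 ± 11.5 against 221 ± 55.9 CPM. The SD of both was larger in the wild-type mice. The remaining enzymes of the group were Gpi1, Pfkl, Pfkp, Pfkm, Aldoc, Gapdh, Eno2 and Ldhb. Their log2 fold changes lay between -0.21 (Pfkm, the muscle form of phosphofructokinase) and 0.20 (Gapdh). Eno1, an enolase outside the group, had 618 ± 30.3 CPM in the knockout against 472 ± 171 CPM in the wild-type (SD). Its log2 fold change of 0.39 ± 0.26 (SE) was near those of Hk1 and Hk2, and its groups overlapped.

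Isozymes of a step were set against each other as shares of CPM per kilobase within each library. Ldha made up between 99.1% and 99.7% of lactate dehydrogenase, and Aldoa between 93.9% and 96.2% of Aldoa and Aldoc. Of phosphofructokinase, Pfkl, the liver form, held 60.9% ± 3.81 in the knockout against 57.6% ± 2.12 in the wild-type (SD, n = 3 each), Pfkp, the platelet form, 31.3% ± 5.35 and 33.0% ± 3.33, and Pfkm 7.75% ± 1.54 and 9.42% ± 1.73. Hk2 held 67.3% ± 4.81 and 68.0% ± 2.46 of the 2 hexokinases. The genotype means of these 4 steps differed by at most 3.33 percentage points (Pfkl). The lactate transporter step had the largest difference of the 6. Slc16a3 held 44.5%, 48.2% and 54.4% of the 2 lactate transporters in the knockout against 31.2%, 34.4% and 46.5% in the wild-type, a difference of 11.7 percentage points (two-sided exact permutation p = 0.2). For the glucose transporters Slc2a1 and Slc2a3 the difference was 0.53 percentage points. Slc2a1 held 99.3% to 99.5% of their sum in the knockout and 98.5% to 99.2% in the wild-type (p = 0.1, exact permutation test). That is the smallest p that 3 against 3 mice allow. Other sugar transporters did not enter this share. Slc5a1 had 125315 counts over the 6 libraries against 24652 for Slc2a1. Its level was 852 ± 629 CPM in the knockout against 451 ± 88.9 CPM in the wild-type (SD). Slc2a2 had 108 ± 89.3 against 98.1 ± 23.6 CPM. The groups of Slc5a1 and of Slc2a2 overlapped. Adjusted over the 6 steps, with 1 gene for each step, the exact permutation p-values were 0.6 for both transporter steps and 0.9 for the other 4. Phosphofructokinase entered with Pfkp (exact permutation p = 0.6 before adjustment). For Pfkl and Pfkm the exact permutation p was 0.3 each, and these were not adjusted.

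The 3 regulators of flux act at branch points. Pdk1, the kinase that keeps pyruvate out of the mitochondrial dehydrogenase, had 76.1, 99.0 and 84.9 CPM in the knockout against 58.2, 82.9 and 78.3 CPM in the wild-type, which gives a log2 fold change of 0.24 ± 0.17. Pfkfb3 and Pfkfb4 make fructose 2,6-bisphosphate, the activator of phosphofructokinase, and their means went opposite ways. Pfkfb3 had 50.7 ± 16.7 against 39.2 ± 10.9 CPM. Pfkfb4 had 27.0, 70.5 and 36.9 CPM against 56.8, 77.1 and 61.3 CPM, with an edgeR adjusted p of 0.805. Its log2 fold change of -0.54 ± 0.34 was the lowest of the 38. Knockout replicate 2 lay inside the wild-type range, whereas the other two knockout libraries lay below it. Per kilobase Pfkfb4 had the highest 6-library mean of the 3, but Pdk1 lay above it in those other two.

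All 4 oxygen sensing genes had log2 fold changes above 0 and overlapped between the groups. Egln3, an oxygen sensor that is itself a HIF target, had 157, 186 and 128 CPM in the knockout against 83.3, 129 and 133 CPM in the wild-type, which gives a log2 fold change of 0.45 ± 0.22 with an edgeR adjusted p of 0.793. Egln1 (PHD2), the main sensor in normal oxygen, had 78.6, 71.5 and 75.2 CPM against 54.8, 61.3 and 75.8 CPM, so only wild-type replicate 3 reached the knockout range. Hif1a, the alpha subunit present in most cells, had 260 ± 67.5 against 201 ± 58.7 CPM, and Epas1 (HIF-2 alpha) 122 ± 61.7 against 116 ± 22.4 CPM. Hif1a was highest in knockout replicate 3 (333 CPM) and Epas1 in knockout replicate 2 (193 CPM). HIF alpha is regulated mostly at the level of the protein, which these counts do not measure.

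The 11 HIF targets held all 4 genes with an unadjusted p below 0.05. Bnip3, a mitochondrial receptor for mitophagy (chromosome 7, 138890836 to 138909519, mm10), had 44.6, 43.1 and 47.5 CPM in the knockout against 17.5, 23.4 and 34.3 CPM in the wild-type libraries. Each knockout library lay above each wild-type library, and the log2 fold change was 0.85 ± 0.24 (adjusted p = 0.791, edgeR). Its paralog Bnip3l (NIX), with the same function, had 82.2 ± 3.19 against 78.9 ± 5.17 CPM, which gives a log2 fold change of 0.06 ± 0.11. Adm, the vasodilator peptide adrenomedullin (chromosome 7, 110627661 to 110629820), had 9.97, 9.21 and 7.32 CPM against 3.35, 5.10 and 5.74 CPM. The groups did not overlap and the log2 fold change was 0.90 ± 0.27 (adjusted p = 0.793, edgeR), the highest of the 38 genes.

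P4ha1 and P4ha2, the catalytic subunits of collagen prolyl 4-hydroxylase, were the remaining pair. P4ha1 (chromosome 10, 59323296 to 59373304) had 43.4, 35.1 and 47.0 CPM in the knockout against 17.7, 18.8 and 34.8 CPM in the wild-type, which gives a log2 fold change of 0.81 ± 0.28 with an edgeR adjusted p of 0.793. Knockout replicate 2 and wild-type replicate 3 all but touched. P4ha2 (chromosome 11, 54100095 to 54131665) had 23.7, 21.6 and 23.9 CPM against 17.5, 7.11 and 14.4 CPM, which gives a log2 fold change of 0.82 ± 0.31. Its knockout values lay close together and its wild-type values far apart. With Hk1, these 4 genes made 5 of 38 whose groups did not overlap, all higher in the knockout. That is 13.2% of the 38, near the 11.2% of all tested genes without overlap in either direction. Higher without overlap were 5.86% of all tested genes, and lower without overlap 5.34%.

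Both hydroxylase genes serve collagen-producing cells, and HIF targets are also active in vessels, so stromal markers are given beside them. The summed level of 8 endothelial markers was 322 to 445 CPM in the knockout and 229 to 301 CPM in the wild-type, with 7 of 8 markers above 0 in log2 fold change. That of 8 smooth muscle markers was 551 to 659 against 210 to 494 CPM (8 of 8), and neither of these sums overlapped. That of 8 fibroblast markers was 676 to 2523 against 409 to 1263 CPM (7 of 8), with overlap. None of these markers was at 0 in all 6 libraries. Taken singly, 3 endothelial, 6 smooth muscle and 1 fibroblast marker did not overlap, all higher in the knockout. Over all tested genes 5.86% were higher without overlap and 5.34% lower. Wild-type replicate 2 was lowest for P4ha2 and Hk1 and also for all 3 sums. Bnip3, Adm and P4ha1 were lowest in wild-type replicate 1 and next lowest in wild-type replicate 2. For P4ha1 these 2 libraries lay close together (17.7 and 18.8 CPM). Other marker lists also lay mostly to 1 side, though no marker in them passed the threshold. Of 10 epithelial markers 9 were below 0 in log2 fold change, with sums of 11988 to 15461 CPM in the knockout and 13269 to 17627 CPM in the wild-type, and the groups of Epcam and Cdx2 did not overlap. All 7 tested lymphocyte markers were below 0, with sums over the 8 listed of 22.8 to 47.2 against 38.8 to 55.1 CPM, and 2 did not overlap. Of 8 proliferation markers 7 were above 0, with sums of 702 to 952 against 660 to 732 CPM, and the groups of Mki67 and Bub1 did not overlap. The part of these cell types, or of proliferation, in the values of the 38 genes was not tested.

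**Figure D3:**
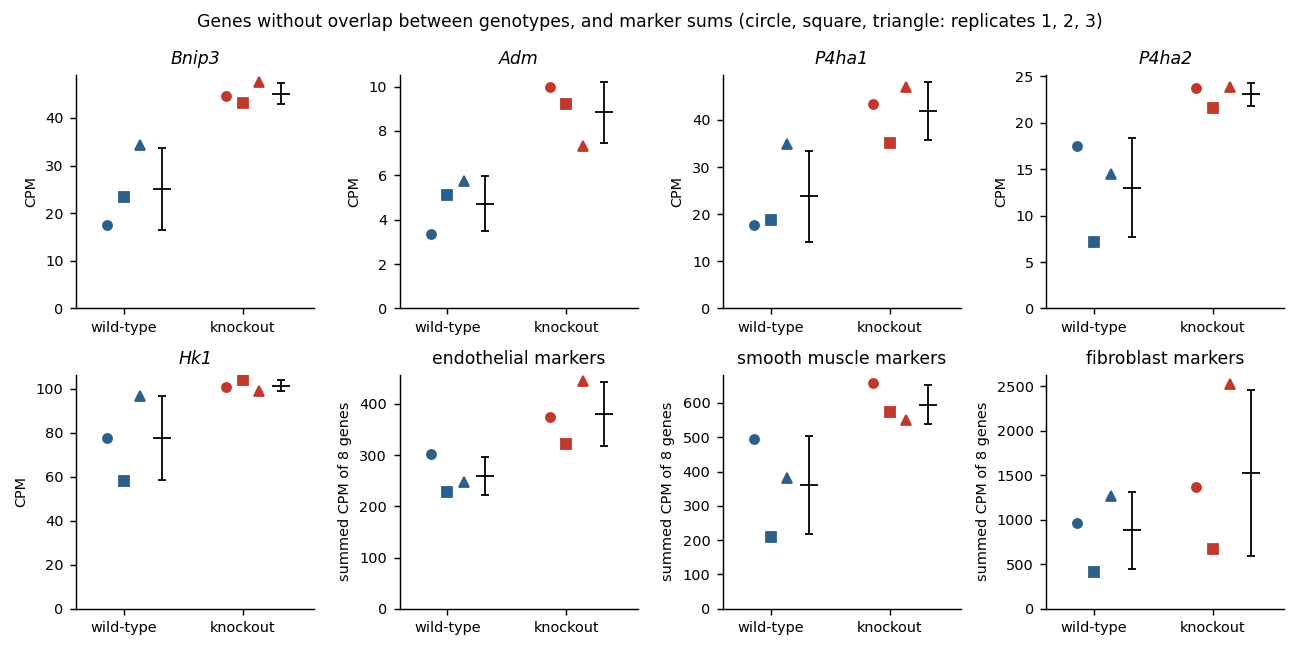
CPM (y axis, from 0) of the 5 genes without overlap between genotypes, and the summed CPM of 8 markers each of endothelium, smooth muscle and fibroblasts. Points are mice, with the replicate number by shape, and black bars are mean ± SD (n = 3). Knockout points lie above all wild-type points in each panel except that of the fibroblast markers.

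The other 7 HIF targets held no such difference. Car9 had 180, 304 and 155 CPM in the knockout against 181, 335 and 272 CPM in the wild-type, which gives a log2 fold change of -0.30 ± 0.32. Vegfa, the angiogenic growth factor, had 87.4, 118 and 124 CPM against 82.8, 117 and 107 CPM. Ndrg1, a stress-induced gene of differentiating epithelium, had 118, 133 and 99.6 CPM against 69.5, 82.2 and 134 CPM. The groups overlapped for these 3 genes. Ddit4 (REDD1), an inhibitor of mTORC1 signaling, had 167, 72.6 and 160 CPM against 136, 104 and 133 CPM, with knockout replicate 2 the lowest of all 6 libraries. Ankrd37, an ankyrin repeat protein, had 11.3, 31.8 and 7.13 CPM against 7.18, 45.9 and 16.0 CPM, the widest spread among the 38 genes (6.39-fold within the wild-type group). Ankrd37 is uncertain, since its exons share 57 bases with Ufsp2 and 349 with Lrp2bp on the opposite strand, and whether reads were counted by strand is not known from the sources. The same holds for Bnip3, which shares 504 exonic bases with the antisense gene Gm45507, and for Gpi1 (741 with Gm26762), Higd1a (683 with Gm47112), Ndrg1 (419 with Gm17035), Pfkp (748 with Pitrm1), Hif1a (330 with Gm15283) and Car9 (214 with Gm12454). Shorter overlaps of this kind, between 18 and 157 bases, exist for Slc2a1, Hk1, Pfkm, Aldoa, Tpi1 and Gapdh. On the same strand, Pkm shares 767 bases with Gm49759, Pfkm 341 with Gm26513 and Hif1a 148 with Gm49321. Gm45507, Gm47112, Gm49759 and Gm49321 were not among the counted genes. Of the counted ones, Ufsp2 had 8398 counts over the 6 libraries against 3842 for Ankrd37, and Gm26762 had 261 against 112559 for Gpi1. Higd1a, a mitochondrial protein of the respiratory chain, had 34.7 ± 5.54 against 36.9 ± 8.46 CPM.

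Seen by library, the 38 genes did not move as 1 block. Wild-type replicate 1 held the lowest of the 6 values for 22 genes, among them 10 of the 16 enzymes, and the highest for 1. Knockout replicate 2 held the highest value for 15 genes, 8 of them enzymes. The wild-type mice thus differed among themselves: the median deviation from the gene's mean over the 6 libraries was -0.35 in replicate 1, -0.09 in replicate 2 and 0.13 in replicate 3 (log2), against -0.003, 0.22 and 0.07 in the knockout replicates. For Gpi1, Pfkp, Aldoa, Tpi1, Ldha, Pfkfb4, Epas1, Ankrd37, Car9 and Higd1a the 3 lowest libraries were knockout replicates 1 and 3 and wild-type replicate 1. That is 10 of 38 genes (26.3%), where 14.8% of all tested genes had this order, which was noticed after the values were seen. In the same 3 libraries the 8 enterocyte markers summed to 5956, 8007 and 8550 CPM, against 8596, 13465 and 14600 CPM in the others. The 8 markers of Apc-mutant epithelium, such as Lgr5 and Axin2, summed to 1742, 1733 and 1448 CPM there and to between 625 and 1098 CPM in the others. The part of differentiated epithelium in these values was not tested.

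**Figure D4:**
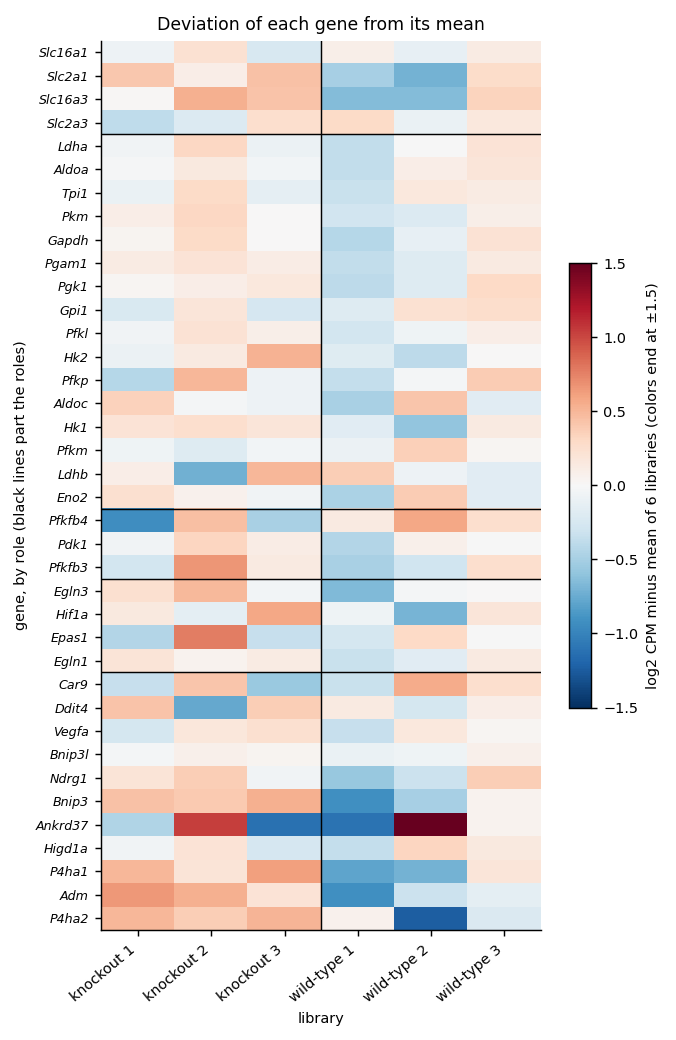
Log2 CPM of each gene (rows, by role, parted by black lines) minus its mean over the 6 libraries (columns, knockout left and wild-type right of the black line). Blue is below and red above the mean, and wild-type replicate 1 is above the mean for 6 of 38 genes.

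Sites for the deleted microRNAs were sought in the members. The mature sequences below show why 1 search serves for both listed microRNAs: their seeds, bases 2 to 8 in capitals, are identical (RefSeq, GRCm38.p6).
mmu-miR-34a-5p: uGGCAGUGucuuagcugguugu
mmu-miR-34b-5p: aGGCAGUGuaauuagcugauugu
A site was a match to the 7 letters CACTGCC (7mer-m8), or to CACTGCCA (8mer), on the sense strand of the longest annotated 3′ UTR. It was present in 13 of the 38 genes (34.2%) and in 16.7% of the 14693 tested genes with an annotated 3′ UTR. The median length of that UTR was 1345 bases in the 38 genes and 1141 bases in all. Among UTRs of at least 1000 bases the shares were 33.3% (8 of 24) and 25.5%, and among shorter ones 35.7% (5 of 14) and 6.25%. With the 7mer-A1 form ACTGCCA added, 17 of 38 genes (44.7%) and 22.8% of all had a site.

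Of the 13 genes with a site, 11 had a log2 fold change above 0, with a median of 0.10, and the 21 genes with none of the 3 forms had a median of 0.17, with 16 above 0. The 3 genes with an 8mer and Adm, the gene with the highest fold change, are shown with 7 bases on either side and the site in capitals (GENCODE M21, GRCm38).
Ldha, chr7:46855343-46855364, plus strand: tgagacaCACTGCCAactgcag
Aldoa, chr7:126795249-126795270, minus strand: tccagccCACTGCCAataaaca
Pdk1, chr2:71903103-71903124, plus strand: tctaataCACTGCCAatgattg
Adm, chr7:110629366-110629386, plus strand: tctgagcCACTGCCttgcccg
Pdk1 has a second site of the 7mer-m8 form in the same UTR. The other genes with a 7mer-m8 site were Slc2a3, Slc16a3, Hk1, Tpi1, Pfkfb4, Egln1, Vegfa, Ndrg1 and Ddit4, whose values stand above. A match is a description of the sequence and does not show that the site is used.

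The core of the element that HIF binds, ACGTG or GCGTG on either strand, was sought in RefSeq promoters, the 300 bases from 250 before to 50 after an annotated start (GRCm38.p6). Of the 38 genes, 34 were found in that table, and 31 of them (91.2%) had either form in at least 1 promoter, where 46.7% of all 27025 genes of the table had one. ACGTG alone was in 25 of 34 (73.5%) and in 21.8% of all. Counted per window, 80.4% of the 46 windows of these genes and 43.8% of all windows held either form. The shares were not compared at equal CG content. The 38 genes include HIF targets chosen by name, and the 27025 genes include genes that were not tested here. The sets thus differ by choice, and no conclusion is drawn from the shares. Among the 25 genes with ACGTG the log2 fold change had its median at 0.23 and was above 0 in 20, and the 9 without it a median of 0.03, with 6 above 0.

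The 180 bases before the start are shown for the 4 genes with an unadjusted p below 0.05 and for Ldha, the most abundant gene, with matches in capitals.
Bnip3, chr7:138909507-138909686, minus strand: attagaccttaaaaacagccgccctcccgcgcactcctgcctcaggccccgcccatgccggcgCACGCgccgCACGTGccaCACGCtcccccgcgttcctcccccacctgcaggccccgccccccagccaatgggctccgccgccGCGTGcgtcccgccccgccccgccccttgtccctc
Adm, chr7:110627477-110627656, plus strand: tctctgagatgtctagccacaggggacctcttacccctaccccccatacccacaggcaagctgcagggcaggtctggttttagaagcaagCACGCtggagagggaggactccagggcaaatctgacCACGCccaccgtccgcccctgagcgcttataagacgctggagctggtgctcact
P4ha1, chr10:59323116-59323295, plus strand: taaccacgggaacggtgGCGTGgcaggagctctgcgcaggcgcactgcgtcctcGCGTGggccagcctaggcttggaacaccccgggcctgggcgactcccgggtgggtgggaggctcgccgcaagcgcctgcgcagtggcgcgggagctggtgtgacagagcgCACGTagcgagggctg
P4ha2, chr11:54100744-54100923, plus strand: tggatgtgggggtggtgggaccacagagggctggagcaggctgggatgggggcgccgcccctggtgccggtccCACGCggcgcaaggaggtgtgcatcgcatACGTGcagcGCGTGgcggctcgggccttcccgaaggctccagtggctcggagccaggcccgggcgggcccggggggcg
Ldha, chr7:46845624-46845803, plus strand: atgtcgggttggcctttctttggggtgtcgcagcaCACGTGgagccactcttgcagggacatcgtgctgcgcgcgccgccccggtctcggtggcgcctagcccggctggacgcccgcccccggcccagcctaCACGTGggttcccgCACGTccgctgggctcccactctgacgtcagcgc
CACGTG, the E-box that other factors bind, holds ACGTG on both strands and so counts as 2 matches. With that, Bnip3 and Ldha had 5 matches each in this window, P4ha1 and P4ha2 3 each, and Adm 2, both of the GCGTG form. Ldha, whose window held 5 matches, all of ACGTG, had a log2 fold change of 0.10, and Adm, with none of that form, had the highest of the set. These 2 genes are single examples, and whether matches go with the fold change was not tested.

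Genes of the wider pathway were read from 6 lists of genes that are not among the 38. No gene in them passed the threshold in either direction. The lists were chosen with earlier results of these data known. Among 34 further hypoxia genes, 20 had a log2 fold change above 0, and the median was 0.06. An unadjusted edgeR p below 0.05 was found for 5, all higher in the knockout. Over all tested genes this share was 5.85% (3.27% when only higher genes are counted). In 6 of the 34 the groups did not overlap, all higher, where 11.2% of all tested genes had no overlap (5.86% higher). The hypoxia gene with the smallest p was Ak4, a mitochondrial adenylate kinase induced by HIF. It had 23.9, 24.1 and 26.9 CPM in the knockout against 4.504, 9.06 and 14.3 CPM in the wild-type. Its log2 fold change of 1.42 ± 0.38 was larger than that of any of the 38 genes, and its groups did not overlap (adjusted p = 0.790, edgeR). Ak4, like Bnip3 and Adm, had wild-type replicate 1 as its lowest library.

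The 21 other genes of glycolysis and sugar transport were split, 10 above and 11 below 0, with a median of -0.004. Tigar, a phosphatase that lowers fructose 2,6-bisphosphate, had the smallest p of them with 22.4 ± 2.42 against 16.0 ± 3.94 CPM. In 3 of the 21, Tigar among them, the groups did not overlap, all higher, where 5.86% of all tested genes were so. All 6 genes of gluconeogenesis, the reverse pathway, were below 0 in log2 fold change, with a median of -0.20. Pck2, the mitochondrial PEP carboxykinase, had 28.4, 27.1 and 26.8 CPM in the knockout against 37.1, 36.5 and 28.7 CPM in the wild-type, which did not overlap (adjusted p = 0.793, edgeR). Of 7 pentose phosphate genes 5 were below 0, and Taldo1, transaldolase, had 362 ± 33.8 against 444 ± 24.0 CPM. Among 15 regulators of HIF 10 were above 0. Egln2, the third EGLN oxygen sensor, went the other way from Egln1 and Egln3 with 62.2 ± 5.85 against 74.8 ± 7.06 CPM and a log2 fold change of -0.27 ± 0.13. Like Pck2, Taldo1 and Egln2 were lower without overlap, as were 5.34% of all tested genes. Of 11 genes of the pyruvate dehydrogenase complex and its regulators 6 were above 0, and Pdp2 had the smallest p (19.1 ± 4.29 against 14.3 ± 2.43 CPM).

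Glycolytic genes have left many processed pseudogenes, intronless copies that can take or give reads. Transcripts of 11 of the 38 genes matched 107 listed genes elsewhere in the genome at 95% identity or more, 91 of them copies of Gapdh. Only 1 of these 107 passed the threshold (42 were tested). Gm1840, a copy of Gpi1 on chromosome 8 (5639580 to 5641011, 98.7% identical over 1046 bases), had 450, 735 and 801 counts in the knockout against 19, 26 and 32 in the wild-type, a log2 fold change of 4.68 ± 0.28 with an edgeR adjusted p of 0.00298. Gpi1 itself had a mean of 526 ± 93.8 CPM in the knockout against 603 ± 100.5 CPM in the wild-type. Summed with Gm1840, its log2 fold change went from -0.20 to -0.15.

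The copies of Gapdh, the gene often used as a reference, differed between mice of the same group. Gm13394, the most abundant (chromosome 2, 28933610 to 28934609, 99.9% identical over 1000 bases), had 1351 and 3601 counts in wild-type replicates 1 and 2, and 4 or 5 in each of the other 4 libraries. Copies took 12.4% and 19.2% of the reads of Gapdh and its copies in those 2 mice and between 5.79% and 5.97% in the other 4. Gapdh alone had 920, 1097 and 900.3 CPM in the knockout against 666, 821 and 1045 CPM in the wild-type, which gives a log2 fold change of 0.20 ± 0.21. Summed with its copies this was 0.10 ± 0.20 (adjusted p = 0.918, edgeR). With copies summed into their genes, again 0 of the 38 passed, where 0.0871% of all genes tested did. For the other 9 genes with copies, at most 2.11% of the reads lay on copies in any library. The most abundant copies of these genes were Gm11814 of Ldha with 303 counts over the 6 libraries, Gm6560 of Pkm with 163, Tpi-rs11 of Tpi1 with 27 and Gm9419 of Bnip3 with 17. Those of Pgk1 (Pgk1-rs7), Ldhb (Gm5514), Bnip3l (Bnip3l-ps), Pgam1 (Pgam1-ps2) and Higd1a (Gm9790) had between 1 and 6 counts.

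**Figure D5:**
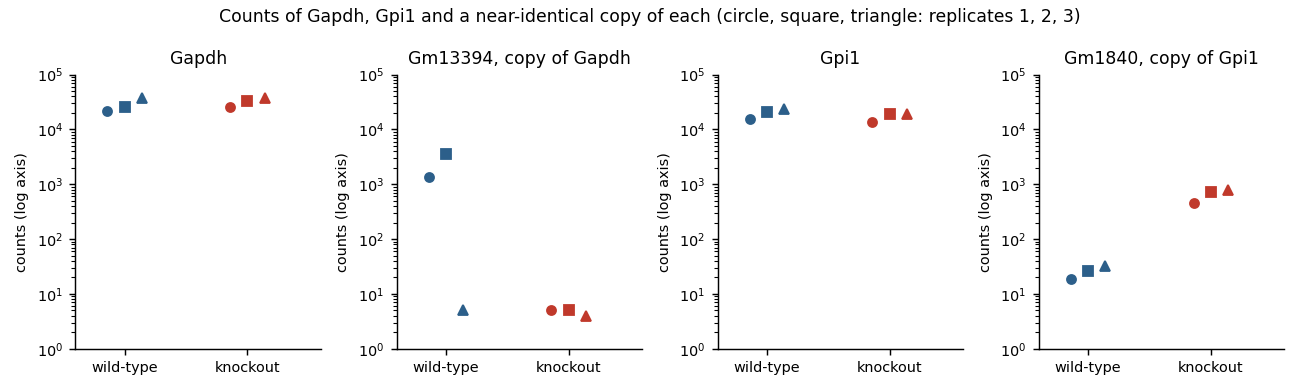
Counts (y axis, log scale) of Gapdh, its copy Gm13394, Gpi1 and its copy Gm1840 in each mouse, wild-type in blue and knockout in red, with the replicate number by shape. Gm13394 is high in 2 wild-type mice only (1351 and 3601), and Gm1840 is high in all 3 knockout mice (450 to 801).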

How the data were processed

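RNA of pooled small intestinal adenomas was sequenced in 3 knockout and 3 wild-type ApcMin/+ mice. The deposited values are raw whole-number counts per Ensembl gene, 1 table per library. Per the submitters' processing notes, alignment and counting involved TopHat2 2.1.0 and HTSeq 0.6.1, with the build mm10. For the annotation release, the strand setting and multiply aligned reads, the sources used here give nothing. Symbols came from GENCODE M21 (45143 of 46078 identifiers).

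Genes were filtered with filterByExpr, normalized by TMM and tested with edgeR 4.0.16 (R 4.3.3; quasi-likelihood, robust, Benjamini-Hochberg over 17254 genes, threshold 0.05). SE is the log2 fold change over the square root of F. On simulated counts for 17254 genes the fit recovered 59% of 4-fold and 14% of 2-fold changes, and called 3 unchanged genes. Copies were found with BLAST 2.17.0 (at least 95% identity over 100 bases), and 3 short matches to unrelated genes were set aside after being seen. Exact tests used scipy 1.17.1. The limit of 3 counts for a value of 0 covers counting error only, whereas SE and SD include the spread between mice. Every pair of libraries differed by more than sampling noise, at 47.0 to 263 for chi-square over its degrees of freedom.

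Members and lists were chosen with earlier results of these data known. Values in every library are given for genes with an unadjusted p below 0.05, without overlap, with the highest level of their role, or with a 7mer-m8 or 8mer site, and for some others chosen after their values were seen. Of each further list the gene with the smallest p is named. Eno1, Slc5a1 and Slc2a2 are also given, after their values were seen. Alternatives tried were size factors from DESeq2, no scaling beyond library size, other filters, non-robust fitting, DESeq2 1.42.0, limma-voom 3.58.1, a replicate block, an adjusted p of 0.1, copies summed and each mouse left out.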

Additional observations from a re-analysis of the deposited data

How the results depend on the processing

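None of the 38 genes passed at an adjusted p of 0.05 under any alternative run, with a lowest adjusted p of 0.104 (Pfkfb4 without knockout replicate 2, edgeR). DESeq2 called 110 genes of all tested against 16, and leaving out a mouse gave between 9 and 41. The median log2 fold change of the 38 genes lay between 0.055 and 0.25 with a mouse left out. Genes without overlap numbered 10 of the 38 with library size alone (26.3%, against 9.62% of all tested genes), and between 7 and 17 with a mouse left out. The lowest, 7, came without wild-type replicate 1 or 2 (18.4%, against 24.1% and 15.4% of all tested genes) and the highest without wild-type replicate 3 (44.7% against 21.04%). Without knockout replicate 2 there were 11, 4 of them lower (28.9% against 40.05%). Signs were kept under every alternative by 25 genes, among them Adm, Bnip3, P4ha1 and P4ha2. With library size alone Slc16a1 (0.0062) and Ldhb (0.072) changed sign, and Epas1 did with limma-voom (-0.011). With a mouse left out the ranges that crossed 0 were -0.18 to 0.046 (Slc16a1), -0.27 to 0.24 (Pfkp), -0.12 to 0.15 (Aldoa), -0.069 to 0.41 (Aldoc), -0.11 to 0.12 (Tpi1), -0.052 to 0.40 (Eno2), -0.050 to 0.24 (Ldha), -0.33 to 0.25 (Ldhb), -0.42 to 0.29 (Epas1), -0.039 to 0.24 (Vegfa), -1.32 to 0.52 (Ankrd37), -0.27 to 0.057 (Higd1a) and -0.11 to 0.39 (Ddit4). The cause was not tested. Replicate numbers are shared between the groups by name only: deviations of same-numbered mice correlated at 0.22, 0.27 and 0.08, and knockout replicate 3 correlated best with wild-type replicate 1. With the replicate number as a block, 14 genes of all tested and 0 of the 38 were called, 9 of the 38 had an unadjusted p below 0.05 (9.46% of all tested genes), and Epas1 changed sign (-0.016).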

Other observations

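Gm47854, a noncoding gene with an 837-base stretch 96.5% identical to Gapdh, lies on chromosome 9 (51621425 to 51655127) at 0.518 Mb from Mir34b. It had 267 and 779 counts in wild-type replicates 1 and 2, 8 in wild-type replicate 3, and 4, 6 and 11 in the knockout replicates. Gm13394 on chromosome 2 was high in the same 2 mice. Gm14148, the copy of Gapdh next in abundance, had 713, 823 and 1036 counts in the knockout and 551, 750 and 1002 in the wild-type. Neither Gm13394 nor Gm47854 passed the filter on low counts, so neither has a test.

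Beside Ak4, 4 further hypoxia genes had an unadjusted p below 0.05. They are named after their values were seen. Tfrc, the transferrin receptor, had 303, 363 and 304 CPM in the knockout and 187, 262 and 234 CPM in the wild-type. Loxl2, a collagen crosslinking enzyme, had a log2 fold change of 1.09 ± 0.44 with overlapping groups. Stc2, a secreted glycoprotein, had 0.43 ± 0.16 and Pygl, liver glycogen phosphorylase, 0.89 ± 0.35, and neither overlapped (adjusted p = 0.793 for all 4, edgeR).

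Bnip3 and Bnip3l, both receptors for mitophagy, differed in spread. Between the lowest and the highest wild-type mouse Bnip3 differed 1.97-fold and Bnip3l 1.13-fold, and within the knockout group 1.10-fold and 1.08-fold.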
